A study of Rattus norvegicus with 12 samples.

Results

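The genes of glucose transport, glycolysis, lactate and pyruvate handling, pyruvate dehydrogenase control and glycogen turnover were followed in both ventricles, left (LV) and right (RV), of newborn rats. The members were chosen by symbol, as 41 carbohydrate genes, and all 41 symbols were found, on 42 of the 32545 gene rows of the deposited table because pyruvate kinase (Pkm) is listed 2 times. Of these 42 rows, 41 passed the filter on low values (a mean of at least 0.5 FPKM, the fragment count per kilobase of transcript scaled to library size) and entered the tests beside all 13910 genes that passed it. Pfkfb1, a fructose-2,6-bisphosphate enzyme best known from liver and skeletal muscle, was listed at 0.143 to 0.624 FPKM and was not tested.

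The animals were SD (Sprague-Dawley) rats operated at postnatal day 1 and sampled at postnatal day 7. The VO surgery placed a fistula between the abdominal aorta and the inferior vena cava, which returns arterial blood to the veins and loads both ventricles with volume (volume overload, VO), and control rats had a sham operation. Bulk RNA of the LV or RV free wall myocardium was sequenced, giving 4 groups of 3 libraries named by surgery and chamber: sham LV, VO LV, sham RV, VO RV. The labels name no transgene, deletion or agent beside the surgery, and they do not say whether an LV and an RV library came from the same rat, nor whether tissue was pooled. Since nothing in the labels says that replicates are separate animals, the p-values measure the spread between these libraries, which may be partly technical.

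The heart takes up glucose through facilitative transporters, traps it by phosphorylation with hexokinase, and then either stores it as glycogen or breaks it down through glycolysis to pyruvate. Pyruvate is reduced to lactate, exported, or carried into mitochondria, where the pyruvate dehydrogenase complex commits it to oxidation. Pyruvate dehydrogenase kinases switch that complex off and its phosphatases switch it on. The newborn heart depends on glycolysis and carries large glycogen stores, and it turns toward fatty acid oxidation in the weeks after birth.

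When the VO response of RV was subtracted from that of LV, the median log2 value was 0.93 for the 5 genes that control pyruvate dehydrogenase, 0.77 for the 9 glycogen genes and 0.68 for the 4 genes of uptake and phosphorylation, against 0.09 and 0.17 for upper and lower glycolysis. All 18 genes of the first 3 roles had negative fitted values in sham LV against sham RV and positive ones in VO LV against sham LV, but without sham LV 2 Pdk3 had the opposite signs (0.10 and -0.01), and without VO LV 3 Slc2a1 was at -0.03 in VO LV. Fold changes are on the scale of log2(FPKM + 0.5), which understates those of low genes. A gene was called a differentially expressed gene (DEG) where the limma adjusted p was below 0.05 and the fold change above 1.3, over all 13910 genes. By that rule 4 of 41 members were DEGs in sham LV against sham RV, where 3.85% of all tested genes were, and 6 were DEGs in the test of whether the VO response differed between LV and RV, where 4.19% were. None was in VO against sham by limma, where 0.0935% of all tested genes were DEGs in LV and 0% in RV. In LV 14 members were higher at the unadjusted p (9.27% of all genes) and 7 were DEGs by voom, limma on the recovered reads (2.45%), and in RV 3 members were lower (3.06%) and 0 were DEGs by voom (0%). The comparisons share groups: a sham LV library that is low lowers sham LV against sham RV and raises VO LV against sham LV by the same amount.

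The libraries held 14121713 to 16871371 reads on genes. Mitochondrially encoded genes took 14.4% of those reads in sham LV 2 and up to 26.2% in sham LV 1. Sham LV 2 gave the lowest value of the 12 libraries for 20 of the 41 tested members, VO RV 3 for 8 and VO RV 2 for 6, and VO LV 3 gave the highest value for 15. Across all tested genes, 8 of the 12 libraries, among them all sham LV and all VO RV libraries, were most like a library of another group. Y-linked genes were expressed in sham LV 1 and 2, sham RV 1 and 2, and VO RV 3 (mean log2 level 3.27 to 3.44) and were at the floor in the others, so that sex differed between sham LV, with 2 of 3 such libraries, and VO LV, with 0 of 3. Ventricular cardiomyocyte markers summed to 17778 to 28341 FPKM, with all 8 above 1 FPKM on average. The atrial markers Sln, Myl7, Myl4 and Bmp10 summed to 1522 FPKM in VO RV 2 and 440.1 in sham RV 1 against at most 306.2 in the others.

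The promoters of Slc16a1, Pygb and Pdk4, the 3 DEGs with the largest differences between the responses of the ventricles, are shown first, with that of lactate dehydrogenase A (Ldha), a glycolytic gene that was no DEG in any comparison, beside them. Each is the 250 bases upstream of the RefSeq gene start in the GRCr8 build, 5′ to 3′ on the gene's strand. Capitals mark ACGTG, the core of the hypoxia response element, on either strand. Where the capitals read CACGTG they also form the E-box bound by MYC and the glucose-sensing ChREBP family, a palindrome that holds ACGTG on both strands.
Slc16a1, chr2:194812410-194812659: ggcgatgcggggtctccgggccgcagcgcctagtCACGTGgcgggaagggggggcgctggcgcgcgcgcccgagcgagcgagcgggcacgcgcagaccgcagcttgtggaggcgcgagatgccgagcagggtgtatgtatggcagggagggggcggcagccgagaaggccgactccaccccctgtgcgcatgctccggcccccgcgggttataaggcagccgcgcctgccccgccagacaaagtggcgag
Pygb, chr3:160071891-160072140: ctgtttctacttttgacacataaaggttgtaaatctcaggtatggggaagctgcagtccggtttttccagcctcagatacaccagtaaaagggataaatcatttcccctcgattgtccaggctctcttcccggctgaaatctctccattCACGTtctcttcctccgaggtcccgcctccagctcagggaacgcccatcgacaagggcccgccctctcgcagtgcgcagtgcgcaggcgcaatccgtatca
Pdk4, chr4:34568330-34568579: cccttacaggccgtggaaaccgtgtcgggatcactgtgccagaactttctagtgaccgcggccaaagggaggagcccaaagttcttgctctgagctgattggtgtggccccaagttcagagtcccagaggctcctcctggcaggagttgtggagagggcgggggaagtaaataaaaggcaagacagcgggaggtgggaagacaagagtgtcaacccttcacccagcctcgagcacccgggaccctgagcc
Ldha, chr1:106507842-106508091: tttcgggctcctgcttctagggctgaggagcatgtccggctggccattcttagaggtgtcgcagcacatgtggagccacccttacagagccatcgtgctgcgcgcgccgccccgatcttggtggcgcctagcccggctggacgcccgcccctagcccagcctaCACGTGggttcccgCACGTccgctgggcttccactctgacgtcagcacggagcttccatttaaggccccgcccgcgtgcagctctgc
The Slc16a1 window held 1 E-box, the Pygb window 1 ACGTG core, the Pdk4 window neither, and the Ldha window 1 E-box and a further ACGTG core nearer the start. Over the 37 member symbols found in the RefSeq promoter table, 18 (48.6%) had ACGTG on either strand of at least 1 promoter and 7 (18.9%) had CACGTG. Counted by promoter, these were 43.9% and 17.1% of the members' 41 promoters. Among all 33469 promoters the shares were 16.6% and 5.59%, and among the 10361 promoters of tested genes 21.4% and 7.87%. The median GC content of the member windows was 60.4% against 51.2% of all windows, and 3 members (Aldoa, Eno1 and Hk1) had more than 1 promoter entry. The forkhead box motif TGTTTAC, looked for on both strands after the differences were known, was in 1 of 41 member promoters (2.44%), that of Pfkfb2, against 3.21% of all promoters and 2.02% of those of tested genes. A match describes the letters only, and Slc2a4, Pgk1, Pdp1 and Ppp1r3b had no entry.

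**Figure D1:**
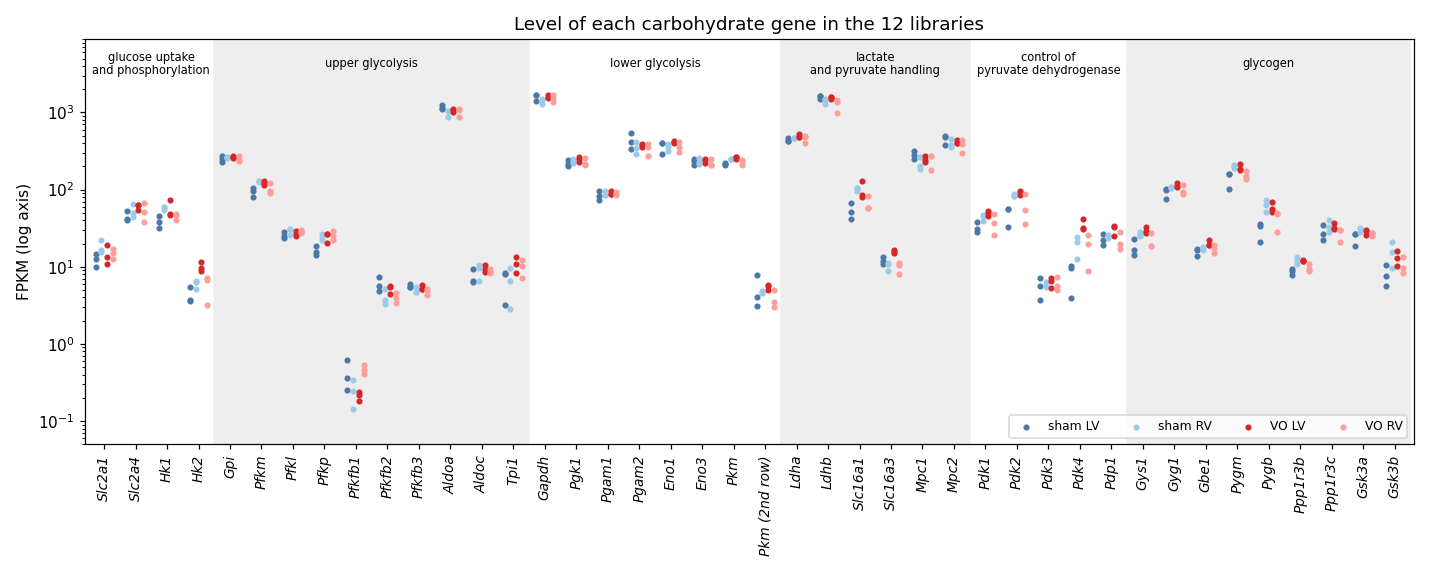
Level of the 42 member rows in the 12 libraries, in FPKM on a log axis, 1 point per library, coloured by group and ordered by role. Gapdh (1269.7 to 1702 FPKM), Ldhb and Aldoa are the highest members, and Pfkfb1 (0.143 to 0.624 FPKM) is the lowest.

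Glucose uptake and its first phosphorylation were represented by 4 genes, and all 4 had lower fitted values in sham LV than in sham RV and higher ones in VO LV than in sham LV. The largest difference was that of Hk2, the insulin-responsive hexokinase, in VO LV. The summed level of the 4 genes was 100.5 ± 16.8 FPKM in sham LV against 141.5 ± 23.03 in VO LV, and 135.0 ± 5.10 in sham RV against 117.5 ± 17.9 in VO RV (mean ± SD, n = 3 each).

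Slc2a4 encodes the insulin-responsive glucose transporter GLUT4 and was the more abundant transporter in every library. Its FPKM were 40.4, 41.8 and 53.6 in libraries 1 to 3 of sham LV, 44.1, 49.3 and 65.3 in those of sham RV, 63.8, 54.9 and 64.02 in VO LV, and 66.8, 37.7 and 51.8 in VO RV. The sham groups overlapped, and the VO LV libraries lay above the sham LV libraries by a log2 difference of 0.43 ± 0.20 (SE), with an adjusted p of 0.221 in limma. Slc2a1, which encodes the basal and fetal transporter GLUT1, was at 12.5, 10.1 and 14.7 in libraries 1 to 3 of sham LV, 22.2, 16.7 and 15.4 in those of sham RV, 13.3, 10.8 and 18.9 in VO LV, and 16.9, 15.04 and 12.8 in VO RV. All 3 sham LV libraries lay below the sham RV libraries, with a log2 difference of -0.52 ± 0.21 and an adjusted p of 0.148. The Slc2a1 to Slc2a4 ratio, by FPKM and so per length, ran from 0.196 to 0.503 and overlapped between groups in all 4 pairwise comparisons.

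Hexokinase 1 (Hk1), the constitutive form, was at 38.1, 31.8 and 45.6 in libraries 1 to 3 of sham LV, 59.9, 60.3 and 53.7 in those of sham RV, 47.5, 48.5 and 72.7 in VO LV, and 47.7, 46.4 and 40.3 in VO RV. Hk2 was lower, at 3.68, 3.63 and 5.39 in libraries 1 to 3 of sham LV, 6.62, 5.12 and 6.37 in those of sham RV, 9.52, 8.72 and 11.6 in VO LV, and 6.69, 7.14 and 3.24 in VO RV. Each VO LV library exceeded every other library for Hk2. The difference of VO LV from sham LV was 1.15 ± 0.25 on the log2 scale, a 2.22-fold difference with an adjusted p of 0.0549, just outside the DEG rule. The VO RV difference was -0.14 ± 0.25, and the difference between the responses was 1.29 ± 0.36 (adjusted p = 0.0623). For Hk1 the sham LV libraries were all below sham RV (-0.60 ± 0.17, adjusted p = 0.0654) and all below VO LV (0.53 ± 0.17, adjusted p = 0.105). The Hk1 to Hk2 ratio was 9.19 ± 1.03 in sham LV and 5.61 ± 0.648 in VO LV (SD, n = 3), without overlap, at the smallest p that an exact permutation test of 3 against 3 allows (p = 0.1, two-sided).

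Upper glycolysis had 9 tested genes. Of these 1, Pfkp, was a DEG in sham LV against sham RV, where 3.85% of all tested genes were. Another 1, Pfkm, was a DEG in the difference of responses, where 4.19% were. Phosphofructokinase is the main control point of glycolysis, with a muscle (Pfkm), a liver (Pfkl) and a platelet (Pfkp) subunit. Pfkm made up most of the family by FPKM, from 62.9% to 72.1% of the 3 subunits.

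The FPKM of Pfkm were 96.6, 80.5 and 103.6 in libraries 1 to 3 of sham LV, 127.6, 125.1 and 130.0 in those of sham RV, 122.7, 115.9 and 130.2 in VO LV, and 123.0, 97.3 and 89.3 in VO RV. Sham LV lay below sham RV in all libraries, VO LV lay above sham LV, and VO RV lay below sham RV. The responses were 0.40 ± 0.12 in LV (adjusted p = 0.101) and -0.32 ± 0.12 in RV (adjusted p = 0.561), and their difference was a DEG at 0.72 ± 0.18 (adjusted p = 0.0477). The Pfkm gene lies at chr7:139685573-139722132 in the coordinates of the deposited table, whose build is not given in the sources used here.

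Pfkp was at 15.7, 14.3 and 18.5 in libraries 1 to 3 of sham LV, 24.4, 22.3 and 26.4 in those of sham RV, 26.4, 20.6 and 26.7 in VO LV, and 28.8, 22.2 and 25.1 in VO RV. The 3 sham LV libraries were the lowest of the 12, and the other 3 groups overlapped one another. Pfkp was lower in sham LV than sham RV, with a log2 difference of -0.58 ± 0.14 (adjusted p = 0.0432), and VO LV was 0.59 ± 0.14 above sham LV (adjusted p = 0.0582), while VO RV differed from sham RV by 0.05 ± 0.14. Pfkl stayed between 23.4 and 30.6 FPKM and passed neither rule in any comparison.

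Pfkfb2 and Pfkfb3 make fructose-2,6-bisphosphate, the strongest activator of phosphofructokinase, and Pfkfb2 is the cardiac form. Pfkfb2 was at 4.85, 7.27 and 5.57 in libraries 1 to 3 of sham LV, 3.73, 3.29 and 5.22 in those of sham RV, 5.65, 5.39 and 4.44 in VO LV, and 4.54, 3.94 and 3.36 in VO RV. It was higher in sham LV than in sham RV by 0.49 ± 0.19, with an unadjusted p of 0.0236 and an adjusted p of 0.134 in limma, and the groups overlapped. Pfkfb3 was at 4.33 to 5.90 FPKM.

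Aldolase A (Aldoa), which splits fructose-1,6-bisphosphate, had the highest level of the upper steps, at 1237, 1113 and 1132 in libraries 1 to 3 of sham LV, 867.0, 1039.6 and 1046 in those of sham RV, 1103, 1072 and 1006 in VO LV, and 1099, 868.6 and 1073 in VO RV. Its log2 differences were 0.24 ± 0.12 in sham LV against sham RV, -0.13 ± 0.12 for VO LV and 0.04 ± 0.12 for VO RV, and none passed. Aldoc, the brain-type aldolase, was at 6.37 to 10.6 FPKM, and glucose-6-phosphate isomerase (Gpi) at 225.2 to 272.3. Triosephosphate isomerase is uncertain in this table: Tpi1 was listed at only 2.80 to 13.4 FPKM, while a near-identical gene, LOC100911515, was listed at 37.7 to 135.3, so that the counting may split 1 enzyme's reads between rows. The 3 triosephosphate isomerase rows summed to 51.2 to 141.8 FPKM. The sums were 141.8, 84.8 and 140.7 in sham RV and lower, without overlap, in VO RV (66.6, 51.2 and 63.5), whereas the fitted difference of the Tpi1 row alone was 0.72 ± 0.42 in VO RV (adjusted p = 0.642). In LV the sums overlapped, at 112.8, 51.9 and 141.8 in sham LV and 97.9, 118.9 and 52.4 in VO LV.

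From glyceraldehyde-3-phosphate to pyruvate the enzymes were abundant. The 8 rows summed to 3128 ± 148.1 FPKM in sham LV against 3232 ± 125.4 in VO LV, and 2925 ± 235.1 in sham RV against 3012 ± 295.1 in VO RV, and no row was a DEG in any comparison. The median log2 difference of the 8 rows was -0.02 in sham LV against sham RV, 0.14 for VO LV and -0.04 for VO RV.

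Gapdh, the dehydrogenase that makes NADH in glycolysis, was the most abundant of these steps, at 1660.5, 1421 and 1669.8 in libraries 1 to 3 of sham LV, 1269.7, 1467 and 1490.4 in those of sham RV, 1702, 1567 and 1547 in VO LV, and 1701, 1387 and 1549 in VO RV. Its log2 differences were between -0.11 and 0.17 over the 5 comparisons. Reads of Gapdh may be shared with near-identical rows, of which RGD1565368 was at 262.5 to 431.4 FPKM and LOC685186 at 164.6 to 388.0. The next enzymes were phosphoglycerate kinase (Pgk1, 204.4 to 265.0 FPKM), the phosphoglycerate mutases Pgam1 (73.3 to 97.4) and Pgam2 (274.7 to 535.4), and the enolases Eno1 (287.4 to 430.8) and Eno3 (206.4 to 260.5). Pgam2 and Eno3 are the muscle forms. In every library Pgam2 exceeded Pgam1 by FPKM and Eno1 exceeded Eno3, with Eno1 to Eno3 ratios of 1.37 to 1.78, and Eno1 may share reads with pseudogene rows listed as alpha-enolase-like.

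Pyruvate kinase (Pkm) closes glycolysis. Its main row was at 218.9, 208.4 and 215.3 in libraries 1 to 3 of sham LV, 245.8, 252.2 and 246.3 in those of sham RV, 261.1, 251.0 and 261.0 in VO LV, and 241.8, 233.9 and 208.6 in VO RV. The sham LV libraries lay below sham RV and below VO LV without overlap, but the differences were small: -0.21 ± 0.08 in sham LV against sham RV (adjusted p = 0.12), 0.27 ± 0.08 in VO LV (adjusted p = 0.0872) and 0.39 ± 0.11 for the difference of responses (adjusted p = 0.0649). The other Pkm row, on chromosome 20, was at 2.99 to 7.87 FPKM. Gene-level values do not separate the M1 and M2 splice forms of Pkm.

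Lactate and pyruvate handling held the member with the smallest adjusted p of the difference of responses, Slc16a1, among 6 genes. Slc16a1 encodes MCT1, the carrier by which heart muscle takes up lactate and ketone bodies. It was a DEG in sham LV against sham RV (3.85% of all tested genes) and in the difference of responses (4.19%). The other 5 genes of this role were DEGs in no comparison by limma.

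The FPKM of Slc16a1 were 51.7, 41.02 and 66.8 in libraries 1 to 3 of sham LV, 106.0, 105.0 and 96.3 in those of sham RV, 80.99, 85.4 and 130.1 in VO LV, and 81.8, 58.3 and 57.05 in VO RV. The sham LV libraries were all below the sham RV libraries, whose values were close together, and all below the VO LV libraries, and the VO RV libraries were all below sham RV. Slc16a1 differed by -0.97 ± 0.21 in sham LV against sham RV (adjusted p = 0.0387). The VO difference was 0.88 ± 0.21 in LV (adjusted p = 0.0619) and -0.65 ± 0.21 in RV (adjusted p = 0.542). Their difference was 1.54 ± 0.30 (adjusted p = 0.0309), and the gene lies at chr2:207108552-207128554 of the deposited table.

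Slc16a3 encodes MCT4, a lactate exporter of glycolytic cells. Its values were 11.01, 13.54 and 11.9 in libraries 1 to 3 of sham LV, 10.7, 11.1 and 8.79 in those of sham RV, 16.5, 15.00 and 15.8 in VO LV, and 11.2, 10.5 and 8.17 in VO RV. Here VO LV stood above all other groups: it exceeded VO RV by 0.65 ± 0.13 (unadjusted p = 0.0004, adjusted p = 0.217) and sham LV by 0.37 ± 0.13 (adjusted p = 0.134). The Slc16a1 to Slc16a3 ratio was 4.44 ± 1.31 in sham LV and 10.1 ± 0.763 in sham RV, without overlap (exact permutation p = 0.1, adjusted p = 0.235 over 40 ratio tests).

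Lactate dehydrogenase B (Ldhb), the heart form, was at 1629, 1495 and 1619 in libraries 1 to 3 of sham LV, 1304, 1443 and 1495 in those of sham RV, 1609, 1487 and 1575 in VO LV, and 1433, 983.1 and 1373 in VO RV, and Ldha at 429.4, 429.7 and 468.0 in libraries 1 to 3 of sham LV, 472.0, 473.0 and 460.4 in those of sham RV, 521.9, 475.3 and 487.5 in VO LV, and 490.0, 486.2 and 404.0 in VO RV. The lowest Ldhb value was that of VO RV 2, the library with the high atrial markers. Neither gene passed a rule in any comparison, and the Ldha to Ldhb ratio was 0.280 ± 0.0143 in sham LV against 0.318 ± 0.00753 in VO LV, and 0.333 ± 0.0274 in sham RV against 0.377 ± 0.105 in VO RV. The 2 subunits of the mitochondrial pyruvate carrier were at 178.4 to 317.3 FPKM (Mpc1) and 299.4 to 496.8 FPKM (Mpc2). Mpc1 was at 283.8, 252.9 and 317.3 in libraries 1 to 3 of sham LV, 184.5, 204.4 and 264.4 in those of sham RV, 269.7, 230.2 and 245.1 in VO LV, and 272.4, 178.4 and 270.1 in VO RV, higher in sham LV than in sham RV by 0.40 ± 0.18 (unadjusted p = 0.0472, adjusted p = 0.189), with overlap, which was opposite in sign to Slc16a1.

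The genes that control pyruvate dehydrogenase had a median log2 difference of responses of 0.93, the highest of the 6 roles with all libraries. Without VO RV 3 it was 0.70, below that of glycogen (0.75). The 5 genes, 4 kinases and the phosphatase Pdp1, all had lower fitted values in sham LV than in sham RV, higher ones in VO LV than in sham LV, and lower ones in VO RV than in sham RV. These signs held for all but Pdk3 when each library was left out, except in VO RV, where Pdk4 (up to 0.29) and Pdk3 (up to 0.11) turned positive and the role median went from -0.24 to -0.06 without VO RV 3. The summed level of the 5 genes was 117.0 ± 25.8 FPKM in sham LV against 213.0 ± 17.9 in VO LV, and 178.1 ± 13.1 in sham RV against 141.8 ± 51.3 in VO RV (mean ± SD).

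Pdk4, the kinase induced by fasting, fatty acids and glucocorticoids, had the largest difference. The FPKM were 10.3, 3.96 and 9.50 in libraries 1 to 3 of sham LV, 24.2, 20.6 and 12.6 in those of sham RV, 30.9, 31.7 and 41.1 in VO LV, and 25.7, 19.9 and 8.86 in VO RV. The VO LV libraries stood above all others and the sham LV libraries below all but VO RV 3. VO LV exceeded sham LV by 2.15 ± 0.41 on the log2 scale (4.44-fold, unadjusted p = 0.00024), with an adjusted p of 0.0519 that missed the DEG rule. Sham LV was below sham RV (-1.28 ± 0.41, adjusted p = 0.0876), VO RV differed from sham RV by -0.15 ± 0.41 with overlap, and the difference of responses was a DEG at 2.30 ± 0.58 (adjusted p = 0.0491). Pdk4 took 8.10% ± 2.12 of the summed kinase FPKM in sham LV against 18.9% ± 2.01 in VO LV, and 12.4% ± 3.01 in sham RV against 14.7% ± 2.68 in VO RV (SD, n = 3). The gene lies at chr4:30546664-30556814 of the deposited table.

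Pdk2, the most abundant kinase, was at 55.9, 32.8 and 56.8 in libraries 1 to 3 of sham LV, 87.8, 81.6 and 82.97 in those of sham RV, 93.7, 85.7 and 95.2 in VO LV, and 88.05, 54.3 and 36.4 in VO RV. Its VO RV values covered a wide range, from 36.4 in VO RV 3 to 88.05 in VO RV 1, beside the sham RV values. Pdk2 was lower in sham LV than sham RV (-0.83 ± 0.27, adjusted p = 0.0946) and higher in VO LV than in sham LV by 0.95 ± 0.27 (adjusted p = 0.0861). The difference of responses, 1.54 ± 0.39, had an adjusted p of 0.0505. Pdk1, the hypoxia-responsive kinase, was at 30.7, 28.2 and 37.8 in libraries 1 to 3 of sham LV, 46.4, 45.5 and 39.6 in those of sham RV, 50.4, 46.1 and 53.4 in VO LV, and 47.6, 36.4 and 25.6 in VO RV. It was lower in sham LV than sham RV (-0.44 ± 0.19, adjusted p = 0.167) and higher in VO LV than in sham LV (0.63 ± 0.19, adjusted p = 0.0908), each without overlap.

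Pdp1, the phosphatase that opposes these kinases, was at 22.5, 19.04 and 26.8 in libraries 1 to 3 of sham LV, 25.6, 26.1 and 23.7 in those of sham RV, 32.9, 25.3 and 33.7 in VO LV, and 28.03, 19.8 and 16.8 in VO RV. Its fitted values had the signs of the kinases: VO LV was above sham LV by 0.42 ± 0.18 (unadjusted p = 0.0398, adjusted p = 0.193), although the groups overlapped. Pdk3 was at 3.76 to 7.32 FPKM and passed neither rule.

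**Figure D2:**
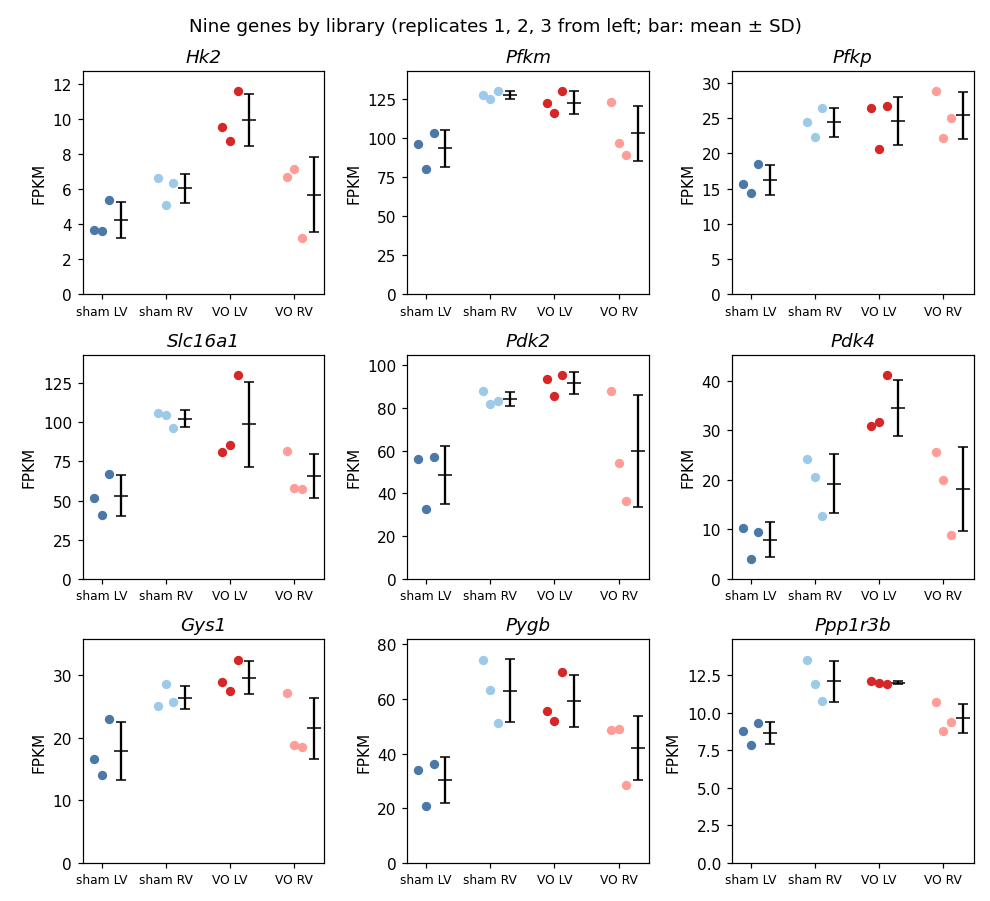
FPKM of 9 members in each library, with replicates 1 to 3 from left to right in each group and the mean ± SD beside them. In every panel the sham LV values are below those of sham RV or overlap them at the edge, and VO LV is above sham LV, most clearly for Pdk4 (sham LV 3.96 to 10.3, VO LV 30.9 to 41.1 FPKM).

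Of the 9 glycogen genes 2 were DEGs in sham LV against sham RV and 3 in the difference of responses, where 3.85% and 4.19% of all tested genes were. All 9 genes had lower fitted values in sham LV than in sham RV, higher ones in VO LV than in sham LV, and lower ones in VO RV than in sham RV. With each library left out in turn no sign changed except that of Gbe1 in VO RV (-0.10 to 0.08). Pygb and Ppp1r3b were DEGs in sham LV against sham RV, and Pygb, Ppp1r3b and Gys1 in the difference of responses. Over the 12 fits with 1 library left out, Pygb kept its call between the sham groups in 5 and Ppp1r3b in 4. In the difference Pygb and Ppp1r3b each kept it in 4 and Gys1 in 2. The 9 genes summed to 364.9 ± 70.3 FPKM in sham LV against 503.0 ± 45.95 in VO LV, and 504.9 ± 23.4 in sham RV against 405.1 ± 54.3 in VO RV.

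Synthesis begins on glycogenin (Gyg1), is extended by glycogen synthase (Gys1) and branched by Gbe1. Gys1 was at 16.7, 14.1 and 22.98 in libraries 1 to 3 of sham LV, 25.03, 28.5 and 25.7 in those of sham RV, 28.9, 27.5 and 32.5 in VO LV, and 27.2, 18.8 and 18.5 in VO RV. The sham LV libraries lay below sham RV and below VO LV without overlap. The log2 differences were -0.58 ± 0.18 in sham LV against sham RV (adjusted p = 0.0819) and 0.74 ± 0.18 in VO LV (adjusted p = 0.0649), and the difference of responses was a DEG at 1.05 ± 0.25 (adjusted p = 0.0461). Gyg1 was the most abundant of the 3, at 99.8, 76.3 and 101.4 in libraries 1 to 3 of sham LV, 108.7, 104.5 and 107.6 in those of sham RV, 108.2, 110.7 and 120.4 in VO LV, and 114.2, 91.8 and 88.7 in VO RV. It differed between the responses by 0.43 ± 0.17 (unadjusted p = 0.0312, adjusted p = 0.156). Gbe1 was at 13.97 to 22.5 FPKM, and its VO LV libraries lay above sham LV by 0.35 ± 0.12 (adjusted p = 0.113).

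Glycogen phosphorylase releases glucose-1-phosphate from glycogen, and the muscle form (Pygm) and the brain form (Pygb) are both expressed in heart. Pygm was at 159.8, 101.2 and 157.6 in libraries 1 to 3 of sham LV, 206.7, 201.0 and 189.6 in those of sham RV, 181.4, 185.8 and 215.0 in VO LV, and 172.8, 148.2 and 135.5 in VO RV. Pygb was at 34.03, 20.9 and 36.2 in libraries 1 to 3 of sham LV, 74.4, 63.1 and 51.3 in those of sham RV, 55.6, 51.9 and 70.00 in VO LV, and 48.7, 49.1 and 28.4 in VO RV. For Pygb the sham LV libraries were all below sham RV, all below VO LV, and VO RV was below sham RV. Pygb differed by -1.06 ± 0.25 in sham LV against sham RV (adjusted p = 0.0442), was 0.98 ± 0.25 higher in VO LV (adjusted p = 0.0703), and its responses differed by 1.58 ± 0.35 (adjusted p = 0.0379). Pygm followed with smaller differences, -0.54 ± 0.16, 0.50 ± 0.16 and, between the responses, 0.89 ± 0.23 (adjusted p = 0.052). In VO RV against sham RV both were lower by the second rule, with log2 differences of -0.39 ± 0.16 for Pygm (unadjusted p = 0.0346) and -0.60 ± 0.25 for Pygb (unadjusted p = 0.035), neither a DEG (limma adjusted p = 0.579 for each). The Pygm to Pygb ratio was 4.64 ± 0.253 in sham LV against 3.22 ± 0.459 in sham RV and 3.31 ± 0.258 in VO LV, without overlap in either comparison (exact permutation p = 0.1, adjusted p = 0.235). Pygb lies at chr3:146582752-146634535 of the deposited table.

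Ppp1r3b and Ppp1r3c are glycogen-targeting subunits of protein phosphatase 1, which dephosphorylates and so activates glycogen synthase. Ppp1r3b was at 8.77, 7.85 and 9.31 in libraries 1 to 3 of sham LV, 13.55, 11.9 and 10.8 in those of sham RV, 12.1, 11.99 and 11.9 in VO LV, and 10.7, 8.79 and 9.35 in VO RV. Its VO LV libraries were nearly equal to one another, and every sham LV library lay below every sham RV and VO LV library. Ppp1r3b differed by -0.46 ± 0.11 in sham LV against sham RV (adjusted p = 0.0431). The VO difference was 0.46 ± 0.11 in LV (adjusted p = 0.0608) and -0.31 ± 0.11 in RV (adjusted p = 0.545), and the responses differed by 0.77 ± 0.15 (adjusted p = 0.0312). Ppp1r3c was at 20.8 to 40.4 FPKM and passed neither rule.

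Gsk3a and Gsk3b encode the glycogen synthase kinases, which inactivate glycogen synthase and are themselves switched off by insulin. Gsk3b was at 7.53, 5.60 and 10.7 in libraries 1 to 3 of sham LV, 21.2, 15.5 and 9.64 in those of sham RV, 13.1, 10.2 and 16.2 in VO LV, and 9.71, 13.51 and 8.41 in VO RV. It was lower in sham LV than sham RV (-0.90 ± 0.30, adjusted p = 0.0953) and higher in VO LV than in sham LV by 0.72 ± 0.30 (adjusted p = 0.181), with overlap in each. Gsk3a, at 26.7, 18.6 and 26.97 in libraries 1 to 3 of sham LV, 30.9, 32.1 and 28.4 in those of sham RV, 29.3, 25.6 and 30.4 in VO LV, and 27.8, 25.2 and 27.1 in VO RV, differed less, by -0.35 ± 0.13 and 0.25 ± 0.13. For Gsk3a the responses differed by 0.44 ± 0.19 at an unadjusted p of 0.0396 and an adjusted p of 0.174.

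**Figure D3:**
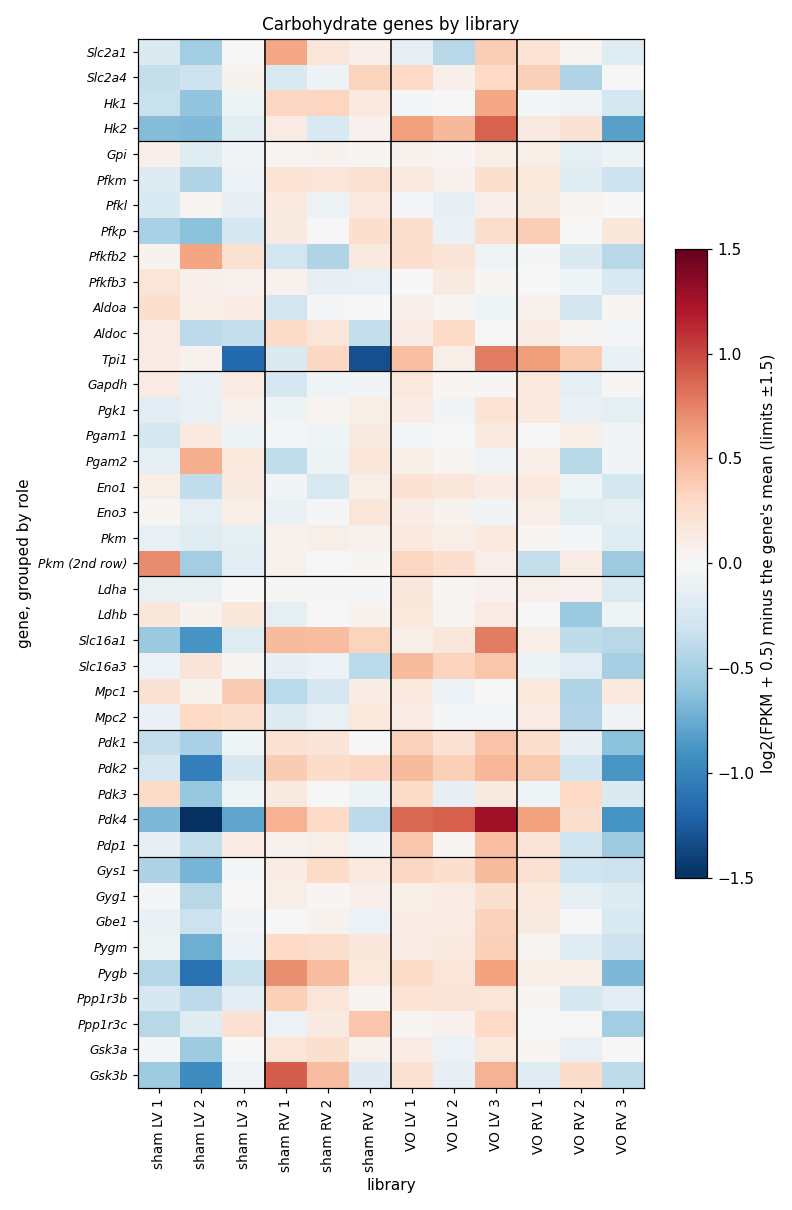
Heat map of the 41 tested member rows (vertical, grouped by role) in the 12 libraries (horizontal), as log2(FPKM + 0.5) minus the gene's mean over the libraries, red above and blue below. Sham LV 2 and VO RV 3 are the bluest columns (lowest of the 12 libraries for 20 and 8 members) and VO LV 3 the reddest (highest for 15).

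In sham LV against sham RV, 11 of 41 members had positive values. The 4 DEGs among 41 members (Slc16a1, Pygb, Pfkp and Ppp1r3b, all lower in sham LV) compare with 3.85% of all tested genes called. At the unadjusted p and fold above 1.3, 13 members were lower in sham LV and 2 were higher (Pfkfb2 and Mpc1), where the whole table had 9.63% lower and 8.19% higher. The groups did not overlap in 15 members that were lower and 2 that were higher, against 16.6% and 15.6% of all genes. The median member difference was -0.18 and that of all genes 0.01. In bulk samples, fewer cells of a type and less RNA per cell cannot be told apart. Of 10 marker lists 6 had a higher sum in sham LV without overlap. Ventricular cardiomyocyte markers summed to 25182 to 26496 FPKM in sham LV and 21510 to 25144 in sham RV, but the genes of the list went both ways. Of its 8 genes 3 were higher in sham LV without overlap (Myl3, Tnnt2 and Tnni3) and 3 were lower (Myh6 at 1544 to 1706 against 2165 to 2355 FPKM, Myh7 at 796.3 to 857.1 against 1018 to 1251, and Ryr2 at 21.2 to 24.0 against 34.6 to 55.8). The genes that did not overlap were 3 of 5 in the red blood cell list, 2 of 3 in the endothelial list, 1 of 4 in the fat list, 1 of 3 in the liver list and 0 of 5 in the macrophage list, all higher in sham LV. Macrophage markers summed to 38.2 to 41.4 FPKM in sham LV against 30.2 to 36.7, and the liver list, with Alb at or near 0, to 18.6 to 22.8 against 12.4 to 15.5. Red blood cell markers summed to 9672 to 13252 FPKM in sham LV and 4923 to 8210 in sham RV, endothelial markers to 271.7 to 292.3 against 198.8 to 218.4, and the fat list, nearly all of it Fabp4, to 812.6 to 1099.8 against 450.9 to 532.9, and the part of all 6 in the member differences was not tested. The DEG count was 0 without sham LV 1 or 2, any sham RV library, or VO LV 1 or 2 (0% to 1.33% of all tested genes), and 7 without VO RV 3 (6.25%), with every member difference keeping its sign for these 4 genes. Without sham LV 2 the unadjusted count was 8 instead of 15. Over all 13910 genes it was then 769 higher and 988 lower instead of 1139 and 1339.

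In VO LV against sham LV no member was a DEG in limma, while 14 were higher and 0 lower at the unadjusted p and fold above 1.3, and limma with voom on the recovered reads called 7 DEGs: Slc16a1, Pygb, Gys1, Pfkp, Pdk4, Ppp1r3b and Hk2. By voom 341 of all 13910 genes (2.45%) were DEGs. By limma 0.0935% of all tested genes were DEGs, 9.27% were higher and 6.44% lower at the unadjusted p. The 14 were Hk1, Hk2, Pfkm, Pfkp, Slc16a1, Pdk1, Pdk2, Pdk4, Pdp1, Gys1, Pygm, Pygb, Ppp1r3b and Gsk3b. The groups did not overlap in 18 members that were higher and in 1, Aldoa, that was lower, against 16.7% and 15.7% of all genes. The median member difference was 0.27, with 34 of 41 positive, and that of all genes -0.02. The adjusted p of Pdk4, Hk2, Pfkp, Ppp1r3b and Slc16a1 lay between 0.0519 and 0.0619, close to the threshold, and the DEG count was 5 without sham LV 3, 2 without VO RV 1 and 9 without VO RV 3, when 2.21%, 1.25% and 3.98% of all tested genes were DEGs. The sums of 4 marker lists were lower in VO LV without overlap: endothelial (229.5 to 260.1 against 271.7 to 292.3 FPKM), fibroblast (1854 to 2247 against 2273 to 2505), macrophage (33.9 to 36.5 against 38.2 to 41.4) and fat (536.3 to 673.2 against 812.6 to 1099.8). By gene, 1 of 3, 2 of 6, 1 of 5 and 1 of 4 of these lists were lower without overlap and 0 higher. Red blood cell sums overlapped (6492 to 9942 FPKM in VO LV against 9672 to 13252), but 3 of the 5 genes (Hba1, Alas2 and Slc4a1) were lower in VO LV without overlap and 0 higher. Skeletal muscle markers, nearly all Acta1, summed to 2648 to 3277 FPKM in VO LV against 1691 to 2697 in sham LV, with overlap. The ventricular cardiomyocyte sums overlapped, with 4 of 8 genes higher in VO LV without overlap (Actc1, Myh6, Myh7 and Ryr2) and 2 lower (Tnnt2 and Tnni3), and the part of these lists in the result was not tested. With the Y-linked level as a covariate the median member difference was 0.23 and without sham LV 2 it was also 0.23.

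VO RV against sham RV gave no DEG in limma among the members, where 0% of all tested genes were DEGs (voom also 0). At the unadjusted p and fold above 1.3, 3 members were lower (Pygm, Pygb and Slc16a1) and 0 higher, against 3.06% lower and 1.85% higher over all genes. By voom 0 members were DEGs and 4 passed at the unadjusted p, where 257 of all 13910 genes were higher and 483 lower. The groups did not overlap in 8 members, all lower, where 6.87% of all genes were lower and 5.64% higher without overlap. These were Hk1, Pfkm, Pkm, Slc16a1, Pygm, Pygb, Ppp1r3b and Gsk3a. The median member difference was -0.09, with 6 of 41 positive, against 0.00 for all genes. The unadjusted count was 1 without VO RV 3 or sham RV 1, 5 without sham RV 3 and 9 without VO RV 1. The counts over all 13910 genes moved as well, from 257 higher and 426 lower with all libraries. They were 214 and 189 without VO RV 3, 248 and 228 without sham RV 1, 372 and 595 without sham RV 3, and 493 and 670 without VO RV 1. The median was -0.19 without VO RV 1, -0.06 without VO RV 3, when 17 of 41 members were positive, and -0.14 with the Y-linked level as a covariate. Leaving out each library in turn changed the sign of 18 of the 41 members. Macrophage markers (37.3 to 59.3 against 30.2 to 36.7 FPKM) and smooth muscle markers (203.0 to 323.3 against 139.8 to 196.8) were higher in VO RV than in sham RV without overlap, as were 2 of 5 and 1 of 3 of their genes. Of 8 ventricular cardiomyocyte genes 3 were lower in VO RV without overlap (Myh6, Myh7 and Ryr2), and the part of these lists was not tested.

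Between the loaded ventricles, VO LV against VO RV, no member was a DEG by limma or by voom, against 0.00719% of genes over the table. At the unadjusted p and fold above 1.3, 8 members were higher in VO LV (Hk2, Slc16a1, Slc16a3, Pdk1, Pdk2, Pdk4, Pdp1 and Gys1) and 0 lower, against 3.85% and 3.56% over all genes. By voom the member count was the same, where 614 of all 13910 genes were higher and 574 lower. In 10 members the groups did not overlap, all with VO LV higher, against 8.45% higher and 7.69% lower over all genes. The median member difference was 0.22, and that of all genes 0.01. The unadjusted count was 5 without VO LV 1, 2 without VO LV 3, 14 without VO RV 1 and 3 without VO RV 3. The counts over all 13910 genes moved as well, from 535 higher and 495 lower with all libraries. They were 561 and 429 without VO LV 1, 322 and 451 without VO LV 3, 816 and 778 without VO RV 1, and 304 and 424 without VO RV 3. Ventricular cardiomyocyte markers (25683 to 28341 FPKM in VO LV, 17778 to 25578 in VO RV), skeletal muscle markers (2648 to 3277 against 1509 to 2046) and the liver list (17.5 to 19.2 against 13.02 to 17.2) were higher in VO LV and macrophage markers (33.9 to 36.5 against 37.3 to 59.3) lower, each without overlap. In the ventricular list 4 of 8 genes were higher without overlap (Actc1, Myh6, Myh7 and Ryr2) and 0 lower, and in the skeletal muscle list 1 of 8 (Acta1) was higher and 2 (Tnni2 and Actn3) lower. In the macrophage list 1 of 5 genes (C1qb) was lower and in the liver list 1 of 3 (Ttr) higher. Fibroblast sums overlapped (1854 to 2247 FPKM in VO LV against 2197 to 4240), but 4 of the 6 genes (Col3a1, Dcn, Lum and Pdgfra) were lower in VO LV without overlap and 0 higher. Atrial markers reached 1522 FPKM in VO RV 2, and the part of these lists was not tested.

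The VO response itself differed between LV and RV for 6 members by the test of the difference (VO LV minus sham LV, less VO RV minus sham RV): Slc16a1, Ppp1r3b, Pygb, Gys1, Pfkm and Pdk4. All 6 had the higher response in LV, and 4.19% of all tested genes were DEGs. At the unadjusted p and fold above 1.3, 17 members were higher and 0 lower, where the whole table had 13.1% higher and 9.94% lower. The median member difference was 0.40, with 34 of 41 positive, against -0.04 for all genes. By role the medians were 0.77 for glycogen, 0.93 for pyruvate dehydrogenase control, 0.68 for uptake and phosphorylation, 0.09 for upper glycolysis, 0.17 for lower glycolysis and 0.18 for lactate and pyruvate handling. In 30 of 41 members the fitted value was higher in VO LV than in sham LV and lower in VO RV than in sham RV, and in 2 members it was the reverse, although in VO RV the sign of 18 members changed with 1 library left out. Without sham LV 2 the role medians were 0.68 for glycogen, 0.84 for pyruvate dehydrogenase control and 0.14 for lower glycolysis, and without VO RV 3 they were 0.75 for glycogen and 0.70 for pyruvate dehydrogenase control. The DEG count was 0 without sham LV 1 or 2, sham RV 1 or 2, VO LV 2 or 3, or VO RV 3, 1 without VO LV 1, 10 without sham LV 3 and 12 without VO RV 1. Of all tested genes 0% to 0.798% were DEGs where the members' count was 0, and 1.73%, 5.49% and 7.21% without VO LV 1, sham LV 3 and VO RV 1. With the Y-linked level as a covariate Slc16a1 alone was a DEG, with 1.27% of all tested genes.

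**Figure D4:**
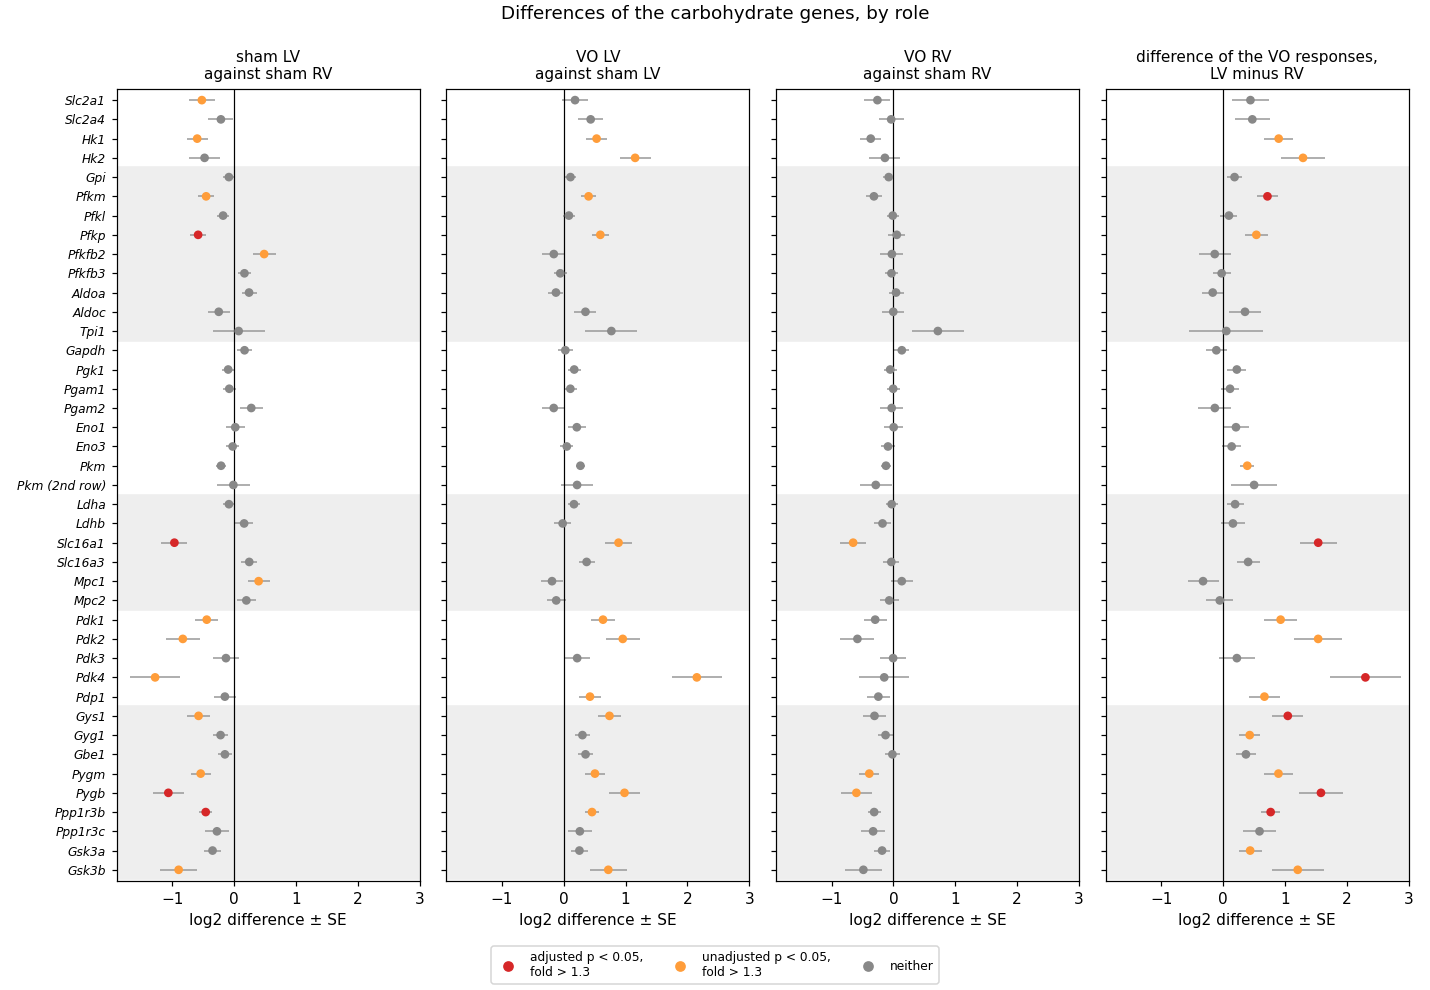
Log2 differences with their SE for the 41 tested member rows in sham LV against sham RV, VO LV against sham LV, VO RV against sham RV, and the difference of the VO responses. DEGs are red (4 in the first panel, 6 in the last), and members that passed only at the unadjusted p are orange.

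Other genes of the same pathways, 66 tested of 85 listed symbols, were counted in the same fit. In sham LV against sham RV, 4 of 66 were DEGs, all lower, where 3.85% of all tested genes were DEGs, among them Nhlrc1 (malin) at a log2 difference of -1.33 ± 0.24, Epm2a (laforin) at -0.90 ± 0.22 and Pdpr, the regulatory subunit of pyruvate dehydrogenase phosphatase, at -0.91 ± 0.22. Malin and laforin act together in glycogen quality control. At the unadjusted p, 3 of 66 were higher and 12 lower in sham LV (8.19% and 9.63% of all tested genes), 11 higher and 7 lower in VO LV (9.27% and 6.44%), and 0 higher and 6 lower in VO RV (1.85% and 3.06%), with no DEG in either VO comparison by limma (0.0935% and 0% of all tested genes). In the difference of responses (17 higher and 7 lower at the unadjusted p, against 13.1% and 9.94%) 6 of 66 were DEGs, where 4.19% of all tested genes were, and 5 of these were higher, among them Nhlrc1 (1.88 ± 0.34), Pdpr (1.53 ± 0.32), Epm2a (1.41 ± 0.31) and Dlat, the acetyltransferase core of pyruvate dehydrogenase (1.00 ± 0.25), and 1, the pentose phosphate enzyme transketolase (Tkt, -0.82 ± 0.19), was lower. Dlat, the sixth by p, was named after its value was seen. The 6 kept their sign with each library left out. However, 0 of the 66 genes were DEGs in the difference without sham LV 1 or 2, sham RV 1 or 2, VO LV 2 or 3, or VO RV 3 (0% to 0.798% of all tested genes). Without VO LV 1 the count was 1 (1.73%), and without VO RV 1 it was 12 (7.21%). In sham LV against sham RV the 4 also kept their sign, while the DEG count was 0 without sham LV 1 or 2, sham RV 1 or 2, or VO LV 2 (0% to 0.0359% of all tested genes). It was 1 without sham RV 3 (1.33%) or VO LV 1 (1.24%), and up to 6 without VO RV 3 (6.25%). In VO LV against sham LV it was 3 without sham LV 3 (2.21% of all tested genes), 2 without VO RV 3 (3.98%), 1 by voom (2.45%) and 5 with array weights (5.06%).

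By list, the 15 other glycogen genes had a median difference of -0.37 in sham LV against sham RV, 0.31 for VO LV and -0.24 for VO RV, and the 7 other pyruvate dehydrogenase genes -0.33, 0.37 and -0.20. The 10 other glycolysis genes had medians of 0.17, -0.11 and -0.01, and the 6 pentose phosphate genes 0.15, -0.16 and 0.17, opposite in sign to the glycogen genes in all 3 comparisons. The 8 transport genes had medians of -0.03, 0.09 and 0.11, the 7 genes of insulin-regulated vesicle traffic -0.07, 0.11 and 0.00, the 8 hypoxia-induced genes outside glycolysis 0.10, -0.02 and 0.01, and the 5 glucose sensors 0.07, 0.17 and 0.12. In VO LV the other pathway genes with the smallest p, none a DEG, were Nhlrc1 (1.15 ± 0.24), Epm2a (0.86 ± 0.22), Pdpr (0.83 ± 0.22), Tkt (-0.49 ± 0.14) and Dlat (0.63 ± 0.18), and in VO RV they included Pdpr (-0.70 ± 0.22), Ppp1r3d (-0.43 ± 0.14), Nhlrc1 (-0.73 ± 0.24) and Epm2a (-0.55 ± 0.22).

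Of 40 tests of ratios between related genes (10 ratios in 4 comparisons), 17 showed no overlap between the groups, and none had an adjusted p below 0.235, the smallest that 3 against 3 libraries gave. The 17 comprised 4 in sham LV against sham RV, 7 in VO LV against sham LV, 2 in VO RV against sham RV and 4 in VO LV against VO RV. Levels of single genes, over all tested genes, were higher and lower without overlap in 15.6% and 16.6%, 16.7% and 15.7%, 5.64% and 6.87%, and 8.45% and 7.69% in the same order. The share for ratios of other genes was not computed, and the 4 comparisons share groups. In VO LV the Hk1 to Hk2, Aldoa to Aldoc and Pygm to Pygb ratios were lower and the Pgam1 to Pgam2, Eno1 to Eno3 and Ldha to Ldhb ratios and the Pdk4 share were higher than in sham LV.

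**Figure D5:**
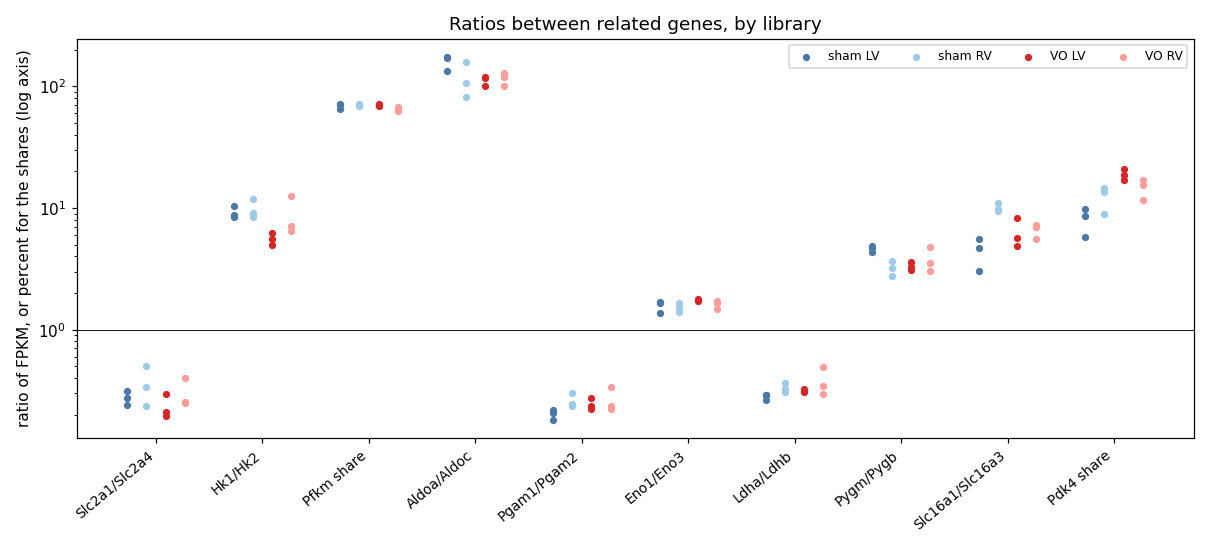
Ratios between related genes of 1 step, by FPKM, and the shares of Pfkm and Pdk4 in their families in percent, in each library on a log axis. The Slc16a1 to Slc16a3 ratio is highest in sham RV (10.1 ± 0.763) and lowest in sham LV (4.44 ± 1.31).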

How the data were processed

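RNA of 12 libraries, 3 in each of 4 groups taken from the labels, was sequenced from poly-A libraries. The authors aligned reads with HISAT2 2.0.5 and counted them with featureCounts 1.5.0-p3, as the submitters' processing notes list, and deposited FPKM per gene; the genome build is not given in the sources used here. Reads on genes were recovered from the deposited FPKM (100% whole within 0.02 below 200 reads), and they set the precision of low genes. No column was unmapped.

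FPKM were divided by median-ratio size factors (0.996 to 1.00), 0.5 was added and log2 taken. The 13910 genes with a mean of at least 0.5 FPKM were fitted in 1 model of 4 groups with limma 3.58.1 in R 4.3.3 (eBayes with trend), with Benjamini-Hochberg adjustment over all of them. DEGs had a fold change above 1.3 at an adjusted p below 0.05, and a second rule took the unadjusted p. Ratios were compared by exact two-sided permutation tests. The procedure was tested on simulated data. All members are named, with every library's value for those past a rule and the most abundant of each step; other pathway genes are named by smallest p, at most 5 per comparison, except that 1 gene this rule selects is not reported here. The members and lists were chosen with earlier results of these data known. Alternatives were other scalings, pseudocounts and filters, separate fits, robust eBayes, array weights, voom, covariates, removal of a gene-length trend, the replicate number as a block, and each library left out. Promoters came from RefSeq, GRCr8. Tables were handled in Python 3.11.15 with pandas 2.3.3 and drawn with matplotlib 3.10.9.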

Additional observations from a re-analysis of the deposited data

Results flagged for a closer look

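The VO responses of LV and RV differed for 6 members by the test of the difference itself (limma, adjusted over 13910 genes), where 583 of all tested genes (4.19%) passed. The log2 differences, LV minus RV, were 2.30 for Pdk4, 1.58 for Pygb, 1.54 for Slc16a1, 1.05 for Gys1, 0.77 for Ppp1r3b and 0.72 for Pfkm. All 6 kept their sign when each library was left out in turn, and all 6 lost the DEG call without sham LV 1, sham LV 2, sham RV 1, sham RV 2, VO LV 2, VO LV 3 or VO RV 3, as they did with the replicate block or without a filter on low values.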

How the results depend on the processing

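Over 57 gene results, those past the unadjusted rule, and 26 alternatives, 1465 values were recomputed: 1242 kept direction and side of the threshold, 223 kept direction but no longer passed, and 0 reversed. The 57 were picked for passing in these same data, so this tally cannot tell how often they would recur in new libraries. Alternatives close to the main fit kept all 57 (FPKM without size factors, pseudocount 1, a mean of at least 1 FPKM), and 32 were kept without sham LV 2. Over all 41 members, leaving out a library changed the sign of 6 in sham LV against sham RV, 7 in VO LV, 18 in VO RV, 10 in VO LV against VO RV and 7 in the difference of responses. DEG counts among the 41 members also moved, and so did those of all tested genes, given in parentheses as their share. In sham LV against sham RV they were 4 (3.85%) as reported, 0 without a filter (0.037%), 1 in a separate fit (2.26%), 7 with array weights (9.50%), 2 with the atrial covariate (2.47%) and 0 to 7 with each library left out (0% to 6.25%). In VO LV they were 0 (0.0935%, 13 genes) as reported, 2 at a mean of at least 1 FPKM (1.44%, 183 genes), 2 in a separate fit (0.855%, 119 genes), 10 with array weights (5.06%, 704 genes), 7 by voom (2.45%, 341 genes), 3 with the atrial covariate (2.33%, 324 genes) and 0 to 9 with libraries left out (0% to 3.98%). In the difference of responses they were 6 (4.19%) as reported, 0 without a filter (0.0972%), 11 with array weights (7.51%), 11 by voom (5.77%), 11 with the atrial covariate (8.72%), 3 with the length trend removed (2.83%), 1 with the Y-linked covariate (1.27%) and 0 to 12 with libraries left out (0% to 7.21%). Counts at the unadjusted p with libraries left out were 8 to 17 in sham LV against sham RV, 1 to 9 in VO RV and 2 to 14 in VO LV against VO RV, and in VO RV 5 with array weights and 9 with the Y-linked covariate. Over all 13910 genes the leave-out counts were 769 to 1386 higher and 988 to 1587 lower, 214 to 493 and 189 to 678, and 304 to 816 and 424 to 778. In VO RV they were 309 higher and 513 lower with array weights and 310 and 579 with the Y-linked covariate. The cause was not tested. Among the 66 other pathway genes the DEG count was 0 without a filter and also 0 with the replicate block in sham LV against sham RV (4 as reported) and in the difference of responses (6 as reported). The shares of all tested genes were 0.037% and 0.0972% without a filter, and 0.0216% and 0.00719% with the block. With the Y-linked covariate the count was 2 in each, where 3.44% and 1.27% of all tested genes were DEGs. In sham LV against sham RV the count was also 9 with array weights (9.50%), 1 with the atrial covariate (2.47%), and 2 in a separate fit (2.26%) or with the length trend removed (3.37%). With the replicate block the DEG counts among the members were 0 in sham LV against sham RV (0.0216%) and 0 in the difference (0.00719%). The labels do not say that a number marks an animal, so the numbers were not taken to pair libraries. Same-numbered libraries correlated at -0.22 to 0.12 around their group means, which with 3 libraries a group cannot settle whether they share an animal. Y-linked genes were expressed in VO RV 3 (mean log2 level 3.28) and at the floor in VO LV 3. A separate fit cannot give the difference of responses. With 3 libraries a group, exact tests cannot go below 0.1.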
